A study of Homo sapiens with 2 samples.

Results

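The proteasome is the large protease complex that degrades proteins tagged with ubiquitin, and its subunits are encoded by genes whose symbols start with PSM. Gene-level RNA sequencing counts of HK-2 cells were searched for protein-coding symbols made of PSMA, PSMB, PSMC, PSMD, PSME, PSMF or PSMG and a number, which gave 48 of the 58302 genes in the table. A gene was called measured if it reached 1 CPM (counts scaled to a fixed library total) in at least 1 library, and 46 of the 48 were. The testis form of an alpha subunit, PSMA8, and the thymus beta subunit PSMB11 had 0 counts in both libraries. With 3 counts as the limit that 0 allows, their levels were at most 0.148 CPM (library labelled Ad-GFP) and 0.151 CPM (library labelled Ad-Bmal1), counting error only. Values given in pairs below have the library labelled Ad-GFP first.

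HK-2 is a human kidney cell line of proximal tubule origin that divides indefinitely, used at passages 7 to 11 and grown with 10% fetal bovine serum, per the labels. Cells of the control group were infected for 24 h with an adenovirus expressing green fluorescent protein, and cells of the other group for 24 h with an adenovirus expressing the coding part of Bmal1, a circadian clock factor that binds DNA as a dimer with CLOCK. Both groups therefore carried an adenovirus vector, which delivers a gene without integrating it. Each group has 1 library, so replicates cannot check any difference, no p-value is given, and each value compares these 2 libraries rather than the conditions. Intervals are exact 95% intervals for counting error only, and leave out the variation between cultures.

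The libraries held 20032652 (labelled Ad-GFP) and 20051735 counts (labelled Ad-Bmal1), of which the 48 genes took 0.825% and 0.830%. BMAL1 itself, checked first because its coding part is what the vector carries, had 204 and 133 counts, a ratio of 0.667 (0.532 to 0.834). These counts do not show the rise that the label implies. Whether reads from the vector were counted in this row was not tested, so directions are stated between the libraries as they were labelled. Of 15 proximal tubule and renal epithelial genes 9 were measured, with 6502 and 8529 counts for PAX8 and 20712 and 19292 for KRT8. The proximal tubule receptor gene LRP2 had 0 counts in both libraries, and the phosphate transporter gene SLC34A1 had 1 and 5. In bulk RNA, fewer cells of a type and less RNA per cell cannot be told apart.

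A 20S core particle stacks rings of alpha subunits, which form the gate, around rings of beta subunits, of which some carry the proteolytic sites. A 19S regulatory particle sits on its ends, with a base of PSMC ATPases that unfold substrates and PSMD subunits that bind and remove ubiquitin. In cells stimulated by interferon-gamma and in immune cells, the catalytic beta subunits PSMB6, PSMB7 and PSMB5 are replaced by PSMB9, PSMB10 and PSMB8, which makes the immunoproteasome, known for producing peptides for MHC class I. Subunit genes as a family are known to be raised together by the factor NRF1 (gene NFE2L1) when the proteasome is inhibited.

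The proteasome genes as a family differed little between the libraries. Of the 46 measured members, 40 had ratios within 1.2-fold (scaled count in the library labelled Ad-Bmal1 over that labelled Ad-GFP), against 60.1% of all 13231 measured genes. Among members with 1000 or more counts in all, 38 of 40 lay within 1.2-fold, against 73.3% of the 5658 such genes. No member differed by 2-fold with an interval that excluded 1, where 1.13% of all measured genes were higher and 1.74% lower by that rule. The median log2 ratio was -0.01 over the measured members and 0.00 over all measured genes.

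At a fold of 1.2 with an interval that excluded 1, 3 members had the higher level under the Ad-Bmal1 label (14.2% of all measured genes) and 2 were lower (13.7%). The higher ones were PSME4, PSMD11 and PSMD3, and the lower ones PSMB10 and PSMD9. Among members with 1000 or more counts, 2 of 40 were higher and none lower, against 16.2% and 10.6% of all such genes. The share of members past the rule was thus below the share of all genes in each direction, which is a description of these libraries. Intervals lay above 1 for 18 members (23.8% of all measured genes) and below 1 for 15 (21.6%). Members are abundant, which narrows their intervals. Among genes with 1000 or more counts the shares were 37.2% above and 27.6% below, and 17 and 12 of the 40 members.

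**Figure D1:**
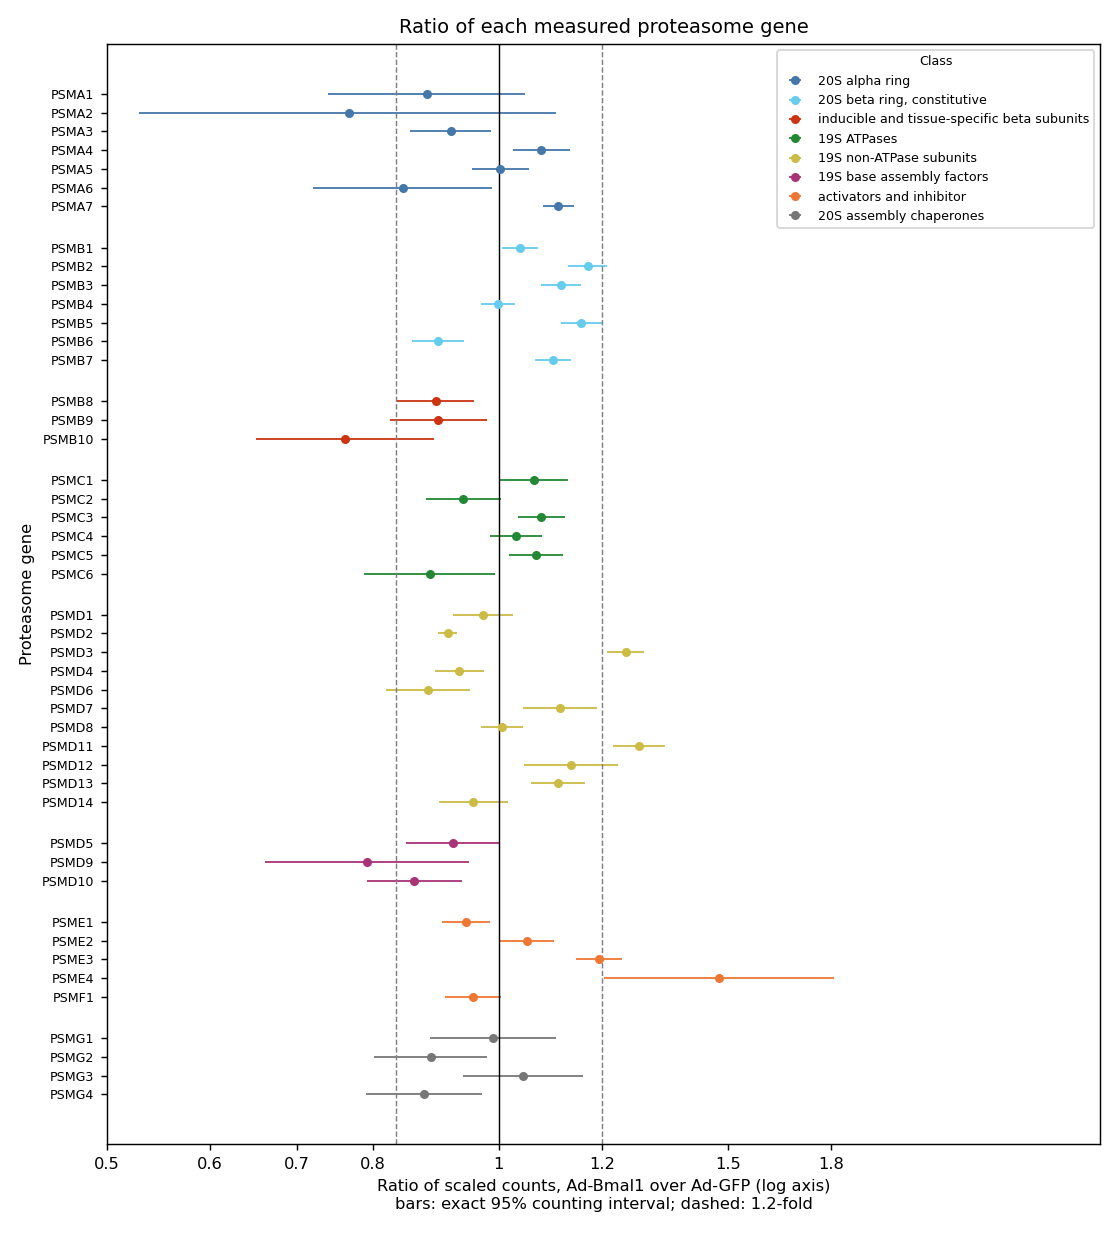
Ratio of each measured proteasome gene (log axis, Ad-Bmal1 label over Ad-GFP label) with its exact 95% counting interval, coloured by class, with dashed lines at 1.2-fold. PSME4, PSMD11 and PSMD3 lie to the right of the upper line, and all 3 inducible beta subunits lie to the left of 1.

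**Figure D2:**
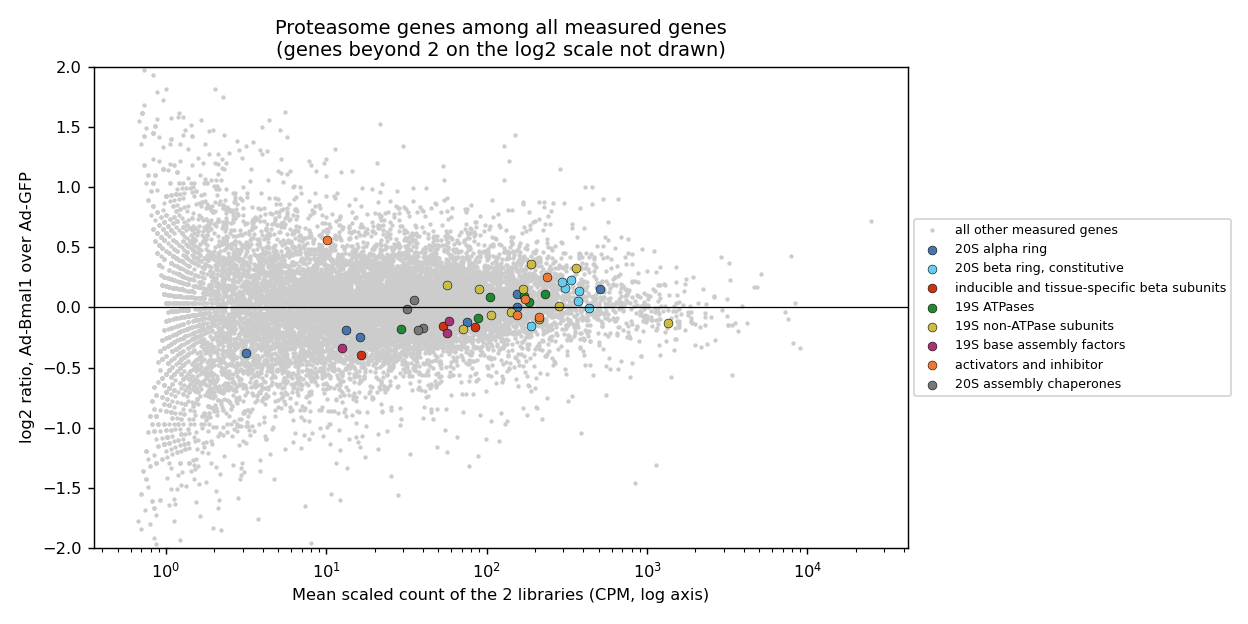
Log2 ratio against mean scaled count (CPM, log axis) for all measured genes in grey and the proteasome genes in colour. The 46 members lie between -0.39 and 0.56 on the log2 scale, within the spread of other genes of like abundance.

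The alpha ring had no member past the 1.2-fold rule. Of its 7 measured genes 2 had intervals above 1 and 2 below, against 23.8% and 21.6% of all measured genes. The median log2 ratio was -0.12. PSMA7 was the most abundant, with 9706 and 10540 counts and the highest ratio of the ring, 1.11 (1.08 to 1.14). With the trend of the log2 ratio on transcript length removed PSMA7 was at 1.216, past 1.2-fold. PSMA2 was the least abundant, with 72 and 54 counts, and had the lowest ratio at 0.767 (0.529 to 1.11), an interval that includes 1. The other 5 ratios lay between these.

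Levels within the alpha ring differed far more between genes than between libraries. Per transcript length, as TPM (counts per kilobase of the longest coding transcript, scaled to a fixed total), PSMA7 had 1004 and 1135, PSMA3 168 and 157, and PSMA2 4.99 and 3.90, although the ring holds these subunits in equal number. PSMA1, at 19.3 and 17.3 TPM, and PSMA6, at 35.4 and 30.4 TPM, were the other low members. These 3 low genes share sequence with other genes. Of the 75-base words in their longest coding transcript, 41.8% (PSMA1), 50.1% (PSMA2) and 83.5% (PSMA6) also occurred in a same-strand transcript of another annotated gene, against 0% for PSMA3, PSMA4, PSMA5 and PSMA7.

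The partners were mainly overlapping protein-coding genes. They were ENSG00000256206 for PSMA1, ENSG00000256646 for PSMA2 and ENSG00000258790 for PSMA6, each at 0 counts in both libraries. PSMA6 also shared 10.9% of its words with the pseudogene PSMA6P1, which had 53 and 39 counts. Outside the ring, PSMB10 (35.4%) and PSMD9 (31.5%) were the remaining members at 30% or more, and the next was PSMC1 (27.0%). All 5 genes at 30% or more had ratios below 1 and mean levels of at most 32.9 TPM, against a median of 111 TPM in the library labelled Ad-GFP over the measured members. Without these 5 genes the alpha ring median was 0.06 in place of -0.12, and no member was lower by the 1.2-fold rule. How the counting treated shared reads was not tested, so levels and ratios of these 5 genes are uncertain.

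**Figure D3:**
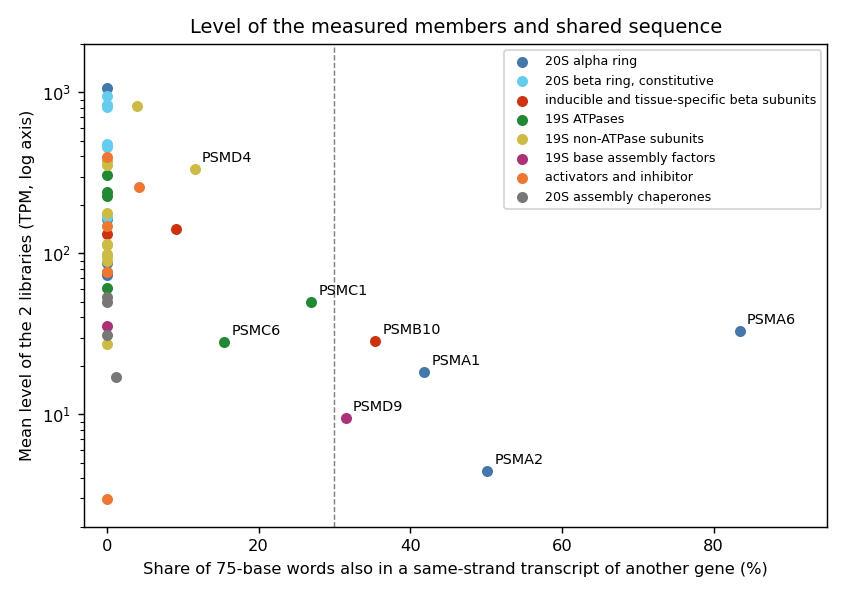
Mean level of each measured member over the 2 libraries (TPM, log axis) against the share of its 75-base words found in a same-strand transcript of another gene, with a dashed line at 30%. The 5 members beyond the line (PSMD9, PSMB10, PSMA1, PSMA2, PSMA6) all lie at or below 32.9 TPM.

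**Figure D4:**
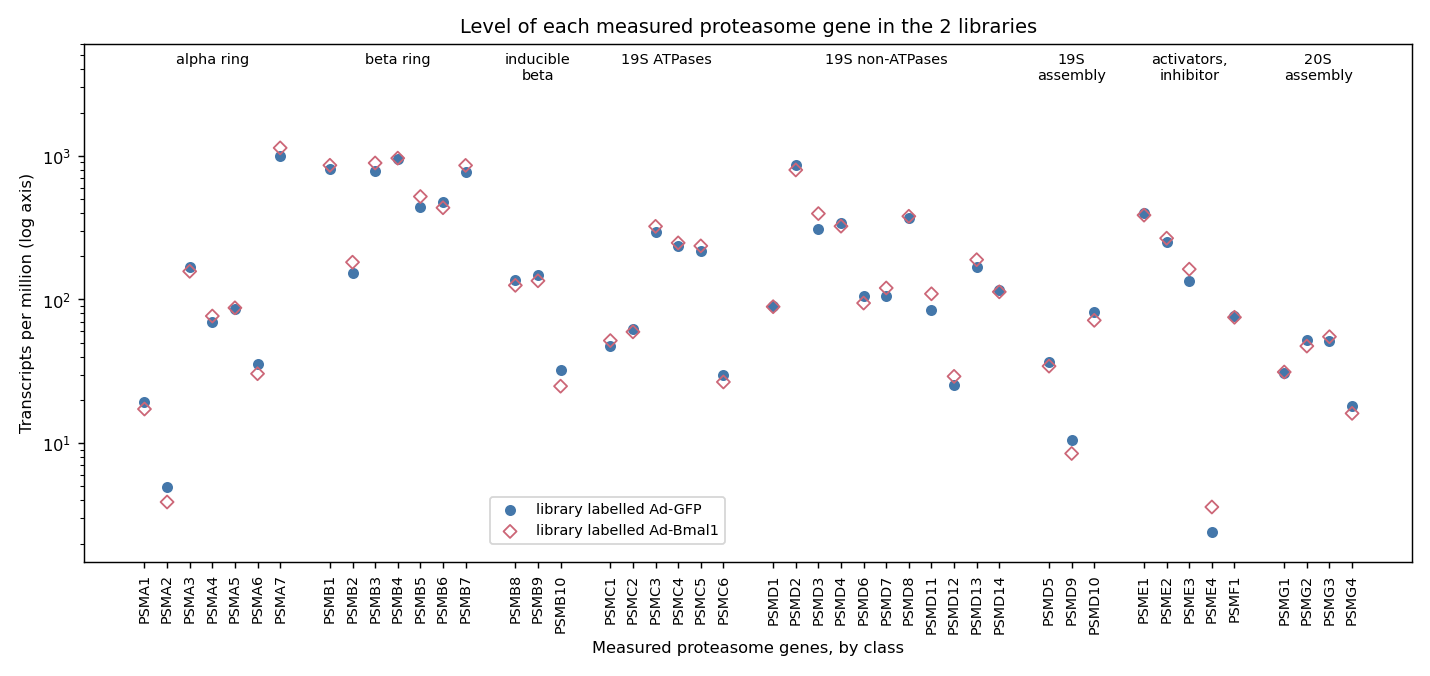
Level of each measured proteasome gene (TPM, log axis) in the library labelled Ad-GFP (filled circles) and the library labelled Ad-Bmal1 (open diamonds), grouped by class. The paired symbols lie close together for nearly every gene, while genes of a class differ widely, as in the alpha ring from 4.99 to 1004 TPM in the library labelled Ad-GFP.

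The constitutive beta ring leaned upward in the library labelled Ad-Bmal1. Of 7 members 5 had intervals above 1 and 1 below, against 37.2% and 27.6% of all genes with 1000 or more counts. The median log2 ratio was 0.14, but none reached 1.2-fold. With the length trend removed PSMB5 was at 1.24, PSMB7 at 1.206 and PSMB3 at a log2 ratio of 0.317, all past 1.2-fold. PSMB2, a structural beta subunit, was the highest with 6247 and 7145 counts, a ratio of 1.17 (1.13 to 1.21). PSMB5, which carries the chymotrypsin-like site targeted by the drug bortezomib, had 5551 and 6281 counts, a ratio of 1.16 (1.12 to 1.201). PSMB7, which carries the trypsin-like site, had 7283 and 7833 counts, a ratio of 1.10 (1.07 to 1.14). PSMB6, which carries the caspase-like site, went the other way from both, with 4023 and 3532 counts and a ratio of 0.898 (0.858 to 0.940). With the length trend removed PSMB6 was at 0.9935, close to 1. The structural subunits PSMB1, PSMB3 and PSMB4 had ratios of 1.04, 1.12 and 0.998. The summed counts of the ring had a ratio of 1.07 (1.06 to 1.085).

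All 3 immunoproteasome subunits had ratios below 1 with intervals that excluded 1. Intervals lay below 1 for 21.6% of all measured genes and for 27.6% of those with 1000 or more counts. PSMB10, at 67934502 to 67937087 of chromosome 16 in GRCh38, had 380 and 283 counts and was lower by the 1.2-fold rule, with a ratio of 0.762 (0.651 to 0.891). PSMB8 (chromosome 6, 32840717 to 32844703) had 1807 and 1580 counts, a ratio of 0.895 (0.836 to 0.958). PSMB9 (chromosome 6, 32844136 to 32859585) had 1134 and 996 counts, a ratio of 0.899 (0.825 to 0.979). The last pair were within 1.2-fold. With the trend of the log2 ratio on transcript length removed PSMB10 was at 0.821, PSMB8 at 0.957 and PSMB9 at 1.001. The summed counts of the 3 genes had a ratio of 0.881 (0.838 to 0.926), against 1.07 (1.05 to 1.09) for their constitutive counterparts together. With the length trend removed the ratio of the summed counts of the 3 genes was 0.956, nearer to 1. PSMB8 overlaps the antisense gene PSMB8-AS1 (27.5% of its words, 16 and 16 counts), and the strand setting of the counting is not given in the sources used here.

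The share of an inducible subunit in the sum of it and its constitutive counterpart does not depend on how the libraries are scaled. Per transcript length, PSMB8 made up 23.8% of PSMB8 and PSMB5 in the library labelled Ad-GFP (22.8 to 24.7, exact binomial) and 19.4% in the library labelled Ad-Bmal1 (18.6 to 20.3). These intervals do not overlap, and going from the first library to the second multiplied PSMB8 over PSMB5 by 0.773 (0.715 to 0.835). PSMB10 made up 4.03% (3.64 to 4.45) and 2.82% (2.51 to 3.17) of PSMB10 and PSMB7, a factor of 0.692 (0.590 to 0.813).

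PSMB9 differed from the other pairs in that its share was alike in the libraries, because PSMB6 had a ratio close to its own. It made up 23.7% (22.5 to 24.9) and 23.7% (22.4 to 25.0) of PSMB9 and PSMB6, a factor of 1.00 (0.907 to 1.10). The caspase-like pair thus kept its balance within counting error, while the chymotrypsin-like and trypsin-like pairs held less of the inducible form in the library labelled Ad-Bmal1. The 2 shares of PSMB10 rest on a gene that shares 35.4% of its words with ENSG00000261884, which had 8 and 10 counts.

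**Figure D5:**
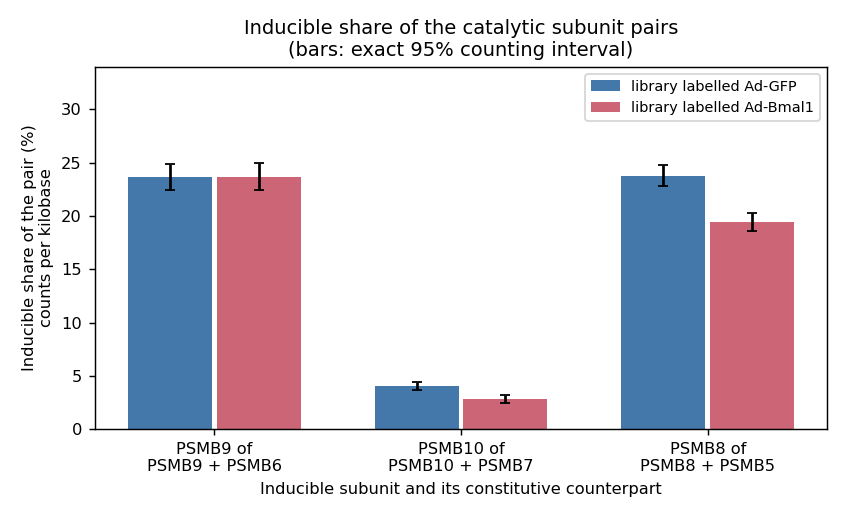
Share of the inducible subunit in each catalytic pair, from counts per kilobase, in the library labelled Ad-GFP (blue) and the library labelled Ad-Bmal1 (red), with exact 95% counting intervals. The bars of PSMB9 with PSMB6 are level at 23.7%, and those of PSMB8 with PSMB5 are 23.8% and 19.4%.

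Leukocytes, which are rich in immunoproteasome, left little trace in either library. Of 10 leukocyte markers 2 were measured, and PTPRC, CD3E, CD52 and LYZ had 0 counts in both libraries. The 10 summed to 24.5 and 22.5 CPM, most of it from CSF1R with 433 and 407 counts. Of 5 endothelial markers 1 was measured, TIE1, with 28 and 7 counts. Of 5 fibroblast markers 4 were measured, and their summed level was 79.0 and 100.3 CPM, led by COL1A1 with 1285 and 1681 counts. Both thymus markers and both testis markers were near 0, apart from PRSS16 with 35 and 22 counts.

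The pathway that induces the immunoproteasome did not lean one way. Of 11 interferon-gamma pathway genes 8 were measured, with a median log2 ratio of -0.03. By the 1.2-fold rule 2 were higher and none lower, against 14.2% and 13.7% of all measured genes. NLRC5, an activator of MHC class I genes, had 183 and 303 counts, a ratio of 1.69 (1.41 to 2.05). IRF1, a factor known to drive the inducible subunits, had 438 and 360 counts, a ratio of 0.841 (0.729 to 0.969). Higher NLRC5 was seen in the library in which PSMB8, PSMB9 and PSMB10 had ratios below 1. Any link between these genes was not tested.

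Of 15 antigen processing partners 1 was higher and 3 were lower by the 1.2-fold rule, against 14.2% and 13.7% of all measured genes. The median log2 ratio of the partners was 0.04. CALR, a chaperone of MHC class I assembly, had a ratio of 1.05 (1.04 to 1.06). B2M, the light chain of MHC class I, had 11900 and 9964 counts, a ratio of 0.857 (0.834 to 0.880). TAP1, the peptide transporter subunit whose gene neighbours PSMB9, had 634 and 686 counts, a ratio of 1.11 (0.992 to 1.235) that does not exclude 1.

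The windows of PSMB8, PSMB10, PSME1 and PSME2, members that interferon-gamma is known to raise, hold the letters of an interferon-stimulated response element and are shown for that reason. The letters GAAA, then any 2 bases, then GAAA were searched on both strands of RefSeq promoter windows (GRCh38.p14, from 250 bases before to 50 after the start), which cover 42 of the 48 members. They occurred in 7 of the 42 (16.7%), against 4.38% of all genes with a window, and the remaining 3 of the 7 were PSMA4, PSMB4 and PSMG4, which are not inducible subunits. The window of the inducible subunit PSMB9 did not hold these letters. In each stretch of 30 bases, read 5′ to 3′ on the gene's strand, the match is in capitals.
PSMB8 (chr6:32844032-32844061, minus strand): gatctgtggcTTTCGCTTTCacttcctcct
PSMB10 (chr16:67936852-67936881, minus strand): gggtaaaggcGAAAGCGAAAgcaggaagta
PSME1 (chr14:24136189-24136218, plus strand): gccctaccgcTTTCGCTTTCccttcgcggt
PSME2 (chr14:24146619-24146648, minus strand): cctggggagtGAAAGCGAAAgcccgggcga
The match lies on either strand, within 28 bases of the start site in each. The 7 members with these letters had a median log2 ratio of -0.08 and the 33 measured members without them -0.01. The letters TTCCNGGAA of a GAS element, another kind of interferon response site, were in no member window and in those of 1.44% of all genes.

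The ATPases of the 19S base lay close to 1. Of 6 members 3 had intervals above 1 and 1 below, against 37.2% and 27.6% of all genes with 1000 or more counts. The median log2 ratio was 0.07, with none past the 1.2-fold rule. PSMC3 was the highest with 4511 and 4755 counts, a ratio of 1.08 (1.035 to 1.12), and PSMC6 the lowest with 629 and 544, a ratio of 0.885 (0.788 to 0.994). PSMC1, PSMC2, PSMC4 and PSMC5 had ratios between those. PSMC6 and PSMC1 were also the lowest of the 6 per length, at 29.6 and 47.8 TPM in the library labelled Ad-GFP against 294 TPM for PSMC3. The length used was 4448 bases for PSMC1 and 1580 for PSMC3. By count in that library PSMC1 (2063) lay above PSMC2 (1847). PSMC1 shares 77.1% of its words with NRDE2 on the opposite strand (336 and 380 counts) and 26.8% with the pseudogene PSMC1P1 (116 and 103 counts), so its count is uncertain.

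Among the non-ATPase subunits of the 19S particle, PSMD11 and PSMD3 passed the 1.2-fold rule upward. PSMD11 (chromosome 17, 32444261 to 32483318), a scaffold subunit of the lid, had 3341 and 4185 counts, a ratio of 1.28 (1.22 to 1.34). PSMD3 (chromosome 17, 39980797 to 39997960), another scaffold subunit of the lid, had 6512 and 7967 counts, a ratio of 1.25 (1.21 to 1.29). Both intervals lie wholly beyond 1.2-fold. The class as a whole did not follow them, with a median log2 ratio of 0.01 over 11 members, 5 intervals above 1 and 3 below. Among all genes with 1000 or more counts 37.2% had intervals above 1 and 27.6% below. Other lid subunits went either way, with 1719 and 1872 counts and a ratio of 1.11 (1.04 to 1.19) for PSMD7 and 1527 and 1316 counts and 0.882 (0.819 to 0.950) for PSMD6, the lowest of the class. Of the words of PSMD7 43.7% also occur on the opposite strand of other genes, so its count is uncertain where strand was not used.

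PSMD2, a large scaffold of the 19S base, was the most abundant member by count, with 28689 and 25627 counts and a ratio of 0.914 (0.899 to 0.930). PSMD4, a ubiquitin receptor, had a ratio of 0.933 (0.894 to 0.974). PSMD14, the deubiquitinase of the lid, had one of 0.956 (0.900 to 1.02), and PSMD1, the other large base subunit, 0.972 (0.923 to 1.025). PSMD12 and PSMD13 had ratios of 1.14 (1.045 to 1.235) and 1.11 (1.06 to 1.165), and PSMD8 one of 1.00 (0.968 to 1.04). The summed counts of the class had a ratio of 1.00 (0.992 to 1.01). The lid and base thus held genes whose intervals lay above 1 and genes whose intervals lay below 1.

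The stretch before the PSMD3 start site is shown because it carries letters of the antioxidant response element, the kind of site through which NRF1 is known to act on proteasome genes. The 250 bases upstream (RefSeq, GRCh38.p14, plus strand, 5′ to 3′) have in capitals a CCAAT box read on the reverse strand and then a match to TGACNNNGC.
PSMD3 (chr17:39980557-39980806): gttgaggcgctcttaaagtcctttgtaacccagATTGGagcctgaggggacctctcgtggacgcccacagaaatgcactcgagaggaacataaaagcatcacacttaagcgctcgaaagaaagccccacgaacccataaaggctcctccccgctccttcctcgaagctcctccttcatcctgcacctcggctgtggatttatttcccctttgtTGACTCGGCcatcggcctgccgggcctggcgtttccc
The upstream stretch of PSMD11 had neither set of letters, nor any of the other 3 searched. Over the family, TGACNNNGC was in the windows of 15 of 42 members (35.7%), against 16.1% of all genes with a window. CCAAT was in 20 of 42 (47.6%) against 39.7%. No match of a motif overlapped a match of another in the member windows.

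Members with the response element letters are shown from several classes, to let their surroundings be compared.
PSMA4 (chr15:78540650-78540679, plus strand): gtgggcacgaTGACTCTGCaccgcctcctc
PSMB3 (chr17:38752627-38752656, plus strand): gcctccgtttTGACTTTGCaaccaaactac
PSMC5 (chr17:63827654-63827683, plus strand): gaccggatctGCTGTGTCAgcgccgccctc
PSMD12 (chr17:67366723-67366752, minus strand): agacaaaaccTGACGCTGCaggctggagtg
PSME4 (chr2:53971008-53971037, minus strand): cccggcggctGCAGCGTCAccagcagagcc
The 5 genes shown all had ratios above 1. They were chosen after their values were seen, and the whole set does not share that direction. Over the 15 measured members with the letters the median log2 ratio was 0.04, with 7 intervals above 1 and 4 below. Over the 25 measured members with a window and without the letters it was -0.07, with 8 above and 9 below. Of all measured genes 23.8% had intervals above 1 and 21.6% below, and of those with 1000 or more counts 37.2% and 27.6%. Whether the letters go with a direction was not tested.

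E-box letters are shown because they are the site BMAL1 and CLOCK are known to bind. CACGTG was found in the windows of 3 of 42 members (7.14%), a share near the 8.78% of all genes with a window.
PSMB3 (chr17:38752491-38752520, plus strand): gtttcaccagccCACGTGcgcgcaggctcc
PSMD9 (chr12:121888647-121888676, plus strand): tcaccacaggcgCACGTGttccggcagggc
PSME3 (chr17:42833343-42833372, plus strand): ggctgcgcagcgCACGTGcacagcctcgca
These 3 genes did not go one way. PSMB3 (5886 and 6422 counts) had a ratio of 1.12 (1.08 to 1.16). PSME3 (4374 and 5101 counts) had one of 1.19 (1.15 to 1.24), while PSMD9 was lower. Letters in these windows are a description and show no binding.

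The 3 members that are assembly factors of the 19S base, which hold ATPases until the base is complete, all had ratios below 1. Of all 13231 measured genes 6563 had ratios below 1. Intervals lay below 1 for 2 of the 3, against 21.6% of all measured genes and 27.6% of those with 1000 or more counts. PSMD9 (chromosome 12, 121888731 to 121918297) had 284 and 220 counts, a ratio of 0.793 (0.662 to 0.949), past the 1.2-fold rule, though 31.5% of its words are shared with other genes. PSMD10, also known as the oncoprotein gankyrin, had 1226 and 1032 counts, a ratio of 0.861 (0.792 to 0.936). PSMD5 had 1224 and 1103 counts, a ratio of 0.922 (0.849 to 1.00) whose interval reaches just past 1. The summed counts had a ratio of 0.881 (0.834 to 0.932), and the median log2 ratio was -0.22.

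Of the 4 chaperones that assemble the 20S core, PSMG2 and PSMG4 had intervals below 1 and none above. Among all genes with 1000 or more counts 27.6% had intervals below 1 and 37.2% above. PSMG4 was the lowest with 808 and 692 counts, a ratio of 0.876 (0.791 to 0.971), and PSMG3 the highest with 700 and 714, a ratio of 1.04 (0.939 to 1.16). PSMG1 and PSMG2, which form a pair, had ratios of 0.990 (0.886 to 1.11) and 0.886 (0.802 to 0.979). The summed counts had a ratio of 0.9425 (0.895 to 0.993).

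Among the activators that can open the 20S core in place of the 19S particle, PSME4 stood highest. PSME4 (chromosome 2, 53864067 to 53970840) encodes PA200, a nuclear activator, and had 165 and 238 counts, a ratio of 1.48 (1.205 to 1.81), the largest in the family. It was also the member with the lowest level per length, at 2.39 and 3.60 TPM, and the longest transcript, at 7099 bases. PSME3, which encodes the nuclear PA28 gamma, lay just under the 1.2-fold rule at 1.19. The interferon-inducible partners PSME1 and PSME2, which form 1 ring, went apart. PSME1 had 4434 and 4092 counts, a ratio of 0.944 (0.905 to 0.985). For PSME2 the counts were 3403 and 3495 and the ratio 1.05 (1.00 to 1.10).

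The ratio of PSME2 to PSME1 in the library labelled Ad-Bmal1 was 1.11 times that in the other (1.04 to 1.19). With the length trend removed PSME1 was at 1.02, on the other side of 1. PSMF1, an inhibitor of the 20S core, had 3221 and 3007 counts, a ratio of 0.955 (0.909 to 1.00). The class had a median log2 ratio of 0.07.

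A list was made of 17 other subunits, assembly factors, and proteins that associate with the proteasome or are named for a subunit. Its median log2 ratio was 0.08. By the 1.2-fold rule 3 were higher and 2 lower, against 14.2% and 13.7% of all measured genes. The 3 higher ones were UBE3C, a ubiquitin ligase, UCHL5, a deubiquitinase, and PSMC3IP, a meiotic recombination cofactor that is not a proteasome subunit. They were named after their values were seen. ADRM1, a ubiquitin receptor of the 19S base, had 4392 and 4509 counts, a ratio of 1.05 (1.01 to 1.095). For SEM1, a small lid subunit, the counts were 2814 and 2554 and the ratio 0.929 (0.880 to 0.980). POMP, which is needed to mature the beta ring, had 2239 and 2521 counts, a ratio of 1.15 (1.09 to 1.22).

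Of 17 genes of ubiquitin, its activation and its delivery 3 were higher and 1 was lower by the 1.2-fold rule, with a median of 0.17. By that rule 14.2% of all measured genes were higher and 13.7% lower. For UBB, a polyubiquitin gene, the counts were 26756 and 28058 and the ratio 1.07 (1.055 to 1.09). Of 14 genes of NRF1 and NRF2 control 4 were higher and 1 lower, beside the same 14.2% and 13.7%, with a median of 0.14. NFE2L1 itself had 8233 and 10328 counts, a ratio of 1.28 (1.25 to 1.32). For VCP, which helps to draw NRF1 out of the endoplasmic reticulum, they were 9262 and 10168 and the ratio 1.12 (1.09 to 1.155). NFE2L1 was higher in the library labelled Ad-Bmal1, beside a family median of -0.01 for the subunit genes. Any link between them was not tested.

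Across the 46 measured members the log2 ratio had a Pearson r of 0.31 and a Spearman rho of 0.22 with log2 transcript length, and over 13217 measured genes with a length the values were 0.19 and 0.24. These are across genes of 1 pair of libraries, which share their depth and preparation and are not replicates. With this trend removed 7 members were higher by the 1.2-fold rule in place of 3, and the beta ring median was 0.20 in place of 0.14. The added members were PSMA7, PSMB3, PSMB5 and PSMB7, all of the 20S core. The library in which long transcripts leaned upward was the one labelled Ad-Bmal1, and the part of this in the ratios of single members was not tested.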

How the data were processed

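Polyadenylated RNA of HK-2 cells was read from both ends at 150 bp, per the labels' protocols. The deposited values are counts per Ensembl gene, whole numbers whose totals differ between libraries and so not normalised. Per the submitters' processing notes, HISAT2 and the build GRCh38 (hg38) were used. Not given in the sources used here: counting tool, strand setting and annotation. Groups were taken from the sample titles, and 0 columns with values of other samples were left out.

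TMM factors from edgeR 4.0.16 (R 4.3.3) were 1.012 and 0.988, with the Ad-GFP label first, which made 1 CPM worth 20.3 and 19.8 counts. Python 3.11.15 with scipy 1.17.1 gave each ratio an exact 95% conditional binomial (Clopper-Pearson) interval. The quasi-likelihood test of edgeR needs replicates and could not be fitted to 1 library per group. No molecular identifiers mark single molecules in the reads, so the intervals may be too narrow. A gene was past a rule if measured, at least 1.2-fold (or 2-fold) apart and with an interval excluding 1. TPM used the longest coding transcript of each gene in GENCODE v29 (GRCh38), which held 99.5% of the gene identifiers and need not be the form expressed. Shared words of 75 bases were sought in all GENCODE v29 transcripts. The ratio, interval and fold rule were tested on counts simulated with counting error only. That simulation held no variation between cultures, shared reads or length trend.

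The members and lists were chosen with earlier results of these data known. Full values were given for catalytic and inducible subunits, members past the 1.2-fold rule and the highest and lowest of each class. In other lists they were given for the 2 genes with the highest mean count, of which some are not reported here, and any other gene was named after its values were seen. Alternatives tried were upper-quartile scaling, total counts, size factors from DESeq2 1.42.0, totals that leave out mitochondrial genes and the 20 genes with most counts, no filter, 10 CPM, thinning, a prior count of 2, protein-coding genes alone, a fold of 1.5, intervals beyond 1.2-fold and removal of the length trend. Leaving out the 5 members that share 30% or more of their words was added after seeing the data.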

Additional observations from a re-analysis of the deposited data

How the results depend on the processing

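No paired analysis was possible because each group holds 1 library. The other scalings moved the median log2 ratio of all measured genes to between -0.03 and 0.00, from 0.00. With the length trend removed, 7 members in place of 3 were higher by the 1.2-fold rule. At 1.5-fold 0 were higher and 0 lower, and 0 were lower with an interval wholly beyond 1.2-fold or without the 5 members that share sequence, in place of 2. Without those 5 the alpha ring median reversed to 0.0559.

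With the length trend removed the median log2 ratio was -0.0125 for the alpha ring, 0.20 for the beta ring, 0.0864 for the 19S non-ATPases and 0.16 for the activators and inhibitor. The ratio of summed counts was then 1.075 for all members, 1.12 for the alpha ring, 1.16 for the beta ring, 0.956 for the inducible subunits, 1.08 for the ATPases, 1.02 for the non-ATPases and 1.08 for the activators and inhibitor. Under total counts it was 1.006 for all members, 1.035 for the alpha ring, 1.046 for the beta ring, 1.016 for the ATPases, 0.979 for the non-ATPases and 1.02 for the activators and inhibitor. Under DESeq2 size factors it was 1.015 for all members, 1.056 for the beta ring and 0.989 for the non-ATPases, and with totals that leave out mitochondrial and abundant genes 1.016, 1.057 and 0.990.

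Not divided by length, PSMB9 made up 21.99% and 22.0% of its pair, and PSMB10 4.96% and 3.49%. Of the named members PSMB9 (1.001) and PSME1 (1.02) crossed 1 with the length trend removed. The cause of these shifts was not tested. Intervals cover counting error only, and variation between cultures is unknown.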

Other observations

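Rows of the table with names derived from proteasome genes held few counts. Of 44 pseudogenes 35 had 0 counts in both libraries, and the other 9 summed to 198 and 168 counts, with the library labelled Ad-GFP first in each pair. PSMC1P1, with 116 and 103 counts, and PSMA6P1, with 53 and 39, were the 2 that reached 1 CPM. PSMA3-AS1, an antisense RNA of PSMA3, had 90 and 101 counts, a ratio of 1.15 (0.856 to 1.54). PSMC3IP, a meiotic recombination cofactor named for an interaction with PSMC3, had 243 and 305 counts, a ratio of 1.28 (1.08 to 1.53).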
